A study of Mus musculus with 6 samples.

Results

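The genes described here are markers, receptors and secreted signals of liver endothelium, the cells that line the sinusoids and the larger vessels. The list was given by symbol and held 35 genes, and 33 of them had a usable row among 22794 usable rows in the tables. The row named Cd34 lay in a block of chromosome 1 rows in which symbol and value do not belong together, and Wnt9b was not analysed here. Whole livers of C57BL/6 mice, an inbred strain, were sequenced as total RNA. Of 6 libraries, 3 were labelled wild type and 3 were labelled Cdkl3-/-, a loss of both copies of Cdkl3, which encodes a kinase related to the cyclin-dependent kinases. The sources place the knockout in the liver, and the promoter, the cell type or the method used to make it is not given in the sources used here. All 6 samples were labelled male, 10 months old and on a chow diet. Each library has its own label, but no label ties them to separate mice, so the p-values reflect only how far these libraries spread, which may be technical. Wild type and knockout below are names taken from these labels.

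Sinusoidal endothelial cells differ from other endothelium in that they carry open pores, lack a continuous basement membrane and clear waste molecules from blood through scavenger and lectin receptors. They also send signals to hepatocytes: Wnt ligands and R-spondin maintain the pericentral programme, and BMP ligands switch on hepcidin. VEGF and angiopoietin receptors on their surface keep the cells alive and hold the vessel wall in place, and transcription factors of the ETS, SOX, GATA and MAF families set their identity.

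Promoter sequences from RefSeq (GRCm38.p6), which had an entry for 20 of the 35 listed genes, are shown for 4 genes chosen after their values were seen. Mrc1 and Kdr were at 1 FPKM or more in each library and fell in the knockout-labelled libraries, and Stab1 and Eng, both textbook endothelial genes, had almost no reads. FPKM is a fragment count scaled to transcript length and to the mapped fragments of the library. Each sequence is the 250 bases before the start site, 5′ to 3′ on the strand of the gene, and capitals mark the ETS letters CAGGAAG or their reverse complement. The windows are chr2:14229164-14229413 (plus strand, Mrc1), chr5:75978456-75978705 (minus strand, Kdr), chr14:31168642-31168891 (minus strand, Stab1) and chr2:32646345-32646594 (plus strand, Eng).
Mrc1: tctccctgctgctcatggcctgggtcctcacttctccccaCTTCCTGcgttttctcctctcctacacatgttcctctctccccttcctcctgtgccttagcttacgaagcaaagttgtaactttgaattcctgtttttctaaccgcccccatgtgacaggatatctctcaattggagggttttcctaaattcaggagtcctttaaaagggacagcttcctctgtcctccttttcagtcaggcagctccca
Kdr: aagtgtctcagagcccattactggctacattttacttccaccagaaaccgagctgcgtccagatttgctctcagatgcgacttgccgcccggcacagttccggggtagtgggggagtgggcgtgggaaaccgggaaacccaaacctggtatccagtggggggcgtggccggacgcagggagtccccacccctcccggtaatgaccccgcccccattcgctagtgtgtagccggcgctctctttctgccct
Stab1: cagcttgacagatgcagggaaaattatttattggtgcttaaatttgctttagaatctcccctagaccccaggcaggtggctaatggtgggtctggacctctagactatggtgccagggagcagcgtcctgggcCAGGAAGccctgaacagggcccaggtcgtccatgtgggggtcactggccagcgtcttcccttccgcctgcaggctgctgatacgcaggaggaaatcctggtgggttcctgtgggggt
Eng: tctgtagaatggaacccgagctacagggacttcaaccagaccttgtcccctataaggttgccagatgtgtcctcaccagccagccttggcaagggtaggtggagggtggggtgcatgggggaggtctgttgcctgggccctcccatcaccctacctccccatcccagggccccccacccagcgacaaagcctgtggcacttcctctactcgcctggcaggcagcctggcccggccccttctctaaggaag
Mrc1 and Stab1 each held 1 ETS match, with first bases at -210 and -117 from the start site, and Kdr and Eng held none in this window. The letters thus stood in 1 gene with many reads and in 1 with almost none. Over windows of 300 bases, from 250 before to 50 after the start site, CCGGAAG or CAGGAAG on either strand stood in 10 of 25 windows of endothelial genes (40%) and in 20.9% of 32851 windows of all genes. AGATAAG, the GATA letters, stood in 2 of the 25 windows against 3.04% of all, AACAAT (SOX) in 4 against 10.7%, CCACACCC (KLF) in 1 against 3.56% and TATAAA in 3 against 13.6%. A gene can have several windows, and a match is a run of letters and not a shown binding site.

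The libraries held about 20460000 to 48610000 counted reads, estimated from the steps between low values. Mitochondrial transcripts took 70.5 to 73.9% of all FPKM in the wild type-labelled libraries and 63.2 to 70.1% in the knockout-labelled libraries. Cdkl3, the targeted gene, measured 0.124 ± 0.0390 FPKM (SD, n = 3) in the wild type-labelled libraries and 0.139 ± 0.0600 FPKM in the knockout-labelled libraries. A two-sided exact permutation test returned p = 0.8 (smallest possible value 0.1), so at 10 to 32 reads per library this gene did not bear out the labels. Xist ran from 192 to 292 FPKM in the wild type-labelled libraries and from 0.0125 to 0.0273 FPKM in the knockout-labelled libraries. The Y-linked gene Ddx3y ran from 0.0694 to 0.207 against 38.2 to 50.8 FPKM. High Xist with almost no Ddx3y did not bear out the male label of the wild type-labelled libraries. Sex as these genes show it and labelled genotype cannot be told apart in any difference below. Kap, a kidney transcript, was at 5264 FPKM in knockout replicate 1 and at most 5.72 FPKM elsewhere. Its part in the results was not tested, and the counts of tested endothelial genes are also given without that library.

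The endothelial genes were detected very unevenly, and the pattern went with base composition. Of 33 genes, 13 reached 1 FPKM in at least 3 libraries and were tested, 11 were lower but had at least 10 reads in some library, and 9 had under 10 reads in every library. The 9 were Stab1, Eng, Tie1, Egfl7, Ramp2, Vwf, Gata4, Sox18 and Gpr182. The mean level over the 6 libraries ran from 0 FPKM for Sox18 to above 10 FPKM for Maf, Mrc1 and Calcrl. Across the 33 genes Spearman's rho between mean FPKM and the GC content of the longest transcript was -0.81, and with exon length it was 0.13. These genes share the same 6 libraries, and no p is given. Over 19714 rows above 0 the same rho with GC content was -0.29. Of the 9 endothelial genes at or over 55% GC none was tested, and 0.179 FPKM was their highest group mean. Of the 12 at 50 to 55% GC 3 were tested, of the 7 at 45 to 50% GC 6 were tested, and of the 5 under 45% GC 4 were tested. Among all rows 3.92% reached the filter at or over 55% GC, 13.8% at 50 to 55%, 27.7% at 45 to 50% and 37.1% under 45%. Gapdh, an enzyme gene used by nearly all cells, had 0 to 38 reads per library. The near absence of Stab1 and Eng, at 57.3 and 57.4% GC, was measured beside a shortage of reads across GC-rich rows. Pecam1 was nearly absent too, at 50.2% GC, while Oit3 and Cdh5 at 50.8 and 52.2% GC were tested. The cause was not tested. Low GC content alone was not enough to reach the filter, since Emcn at 40.7% and Dnase1l3 at 48.5% GC were under it. Of the defining endothelial markers, Cdh5 and Kdr were measured at 0.456 to 2.76 and 2.11 to 4.72 FPKM, and Pecam1, Tie1 and Egfl7 were at or near 0.

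**Figure D1:**
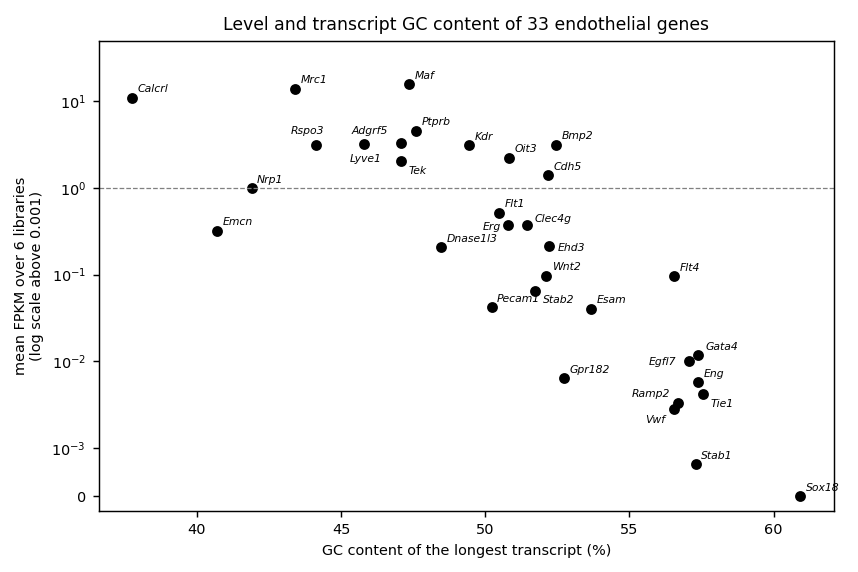
Mean FPKM over the 6 libraries (vertical axis, log scale above 0.001) against the GC content of the longest transcript in percent (horizontal axis), 1 point for each of 33 endothelial genes. All 9 genes at or over 55% GC lie far under the dashed line at 1 FPKM, and the genes above 10 FPKM, Maf, Mrc1 and Calcrl, lie under 50% GC.

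Among the 13 tested genes, 8 fell in the knockout-labelled libraries, 1 rose and 4 were not called at a limma adjusted p under 0.05. The genes that fell were Calcrl, Maf, Cdh5, Lyve1, Mrc1, Kdr, Oit3 and Ptprb, and the gene that rose was Nrp1. Over all 5651 genes tested, 20.5% were lower and 33.7% higher in the knockout-labelled libraries. The median log2 difference of the 13 genes was -0.56, on the log2(FPKM + 1) scale used for all differences, against 0.12 for all tested genes. Cdh5 reached 1 FPKM only in the wild type-labelled libraries and Nrp1 only in the knockout-labelled libraries, so both could hardly have been tested without differing. Among the 11 endothelial genes at 1 FPKM or more in all 6 libraries, 7 fell and 0 rose (also 0 at an unadjusted limma p under 0.05), where 23.9% of 3881 such genes fell and 23.4% rose. In bulk liver, fewer endothelial cells and less RNA per cell cannot be told apart. For 10 of the 13 genes the libraries were fully parted by group, 9 with each library labelled knockout below each wild type library and 1 above. Over all tested genes the shares were 25.9% below and 38% above. The count of genes that fell depended on the libraries used: it was 3 without wild type replicate 2 or without wild type replicate 3, 4 and 5 without knockout replicates 3 and 2, and 7 without wild type replicate 1 or knockout replicate 1. Calcrl, Maf and Lyve1 were called in each of the 6 fits that left out 1 library.

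**Figure D2:**
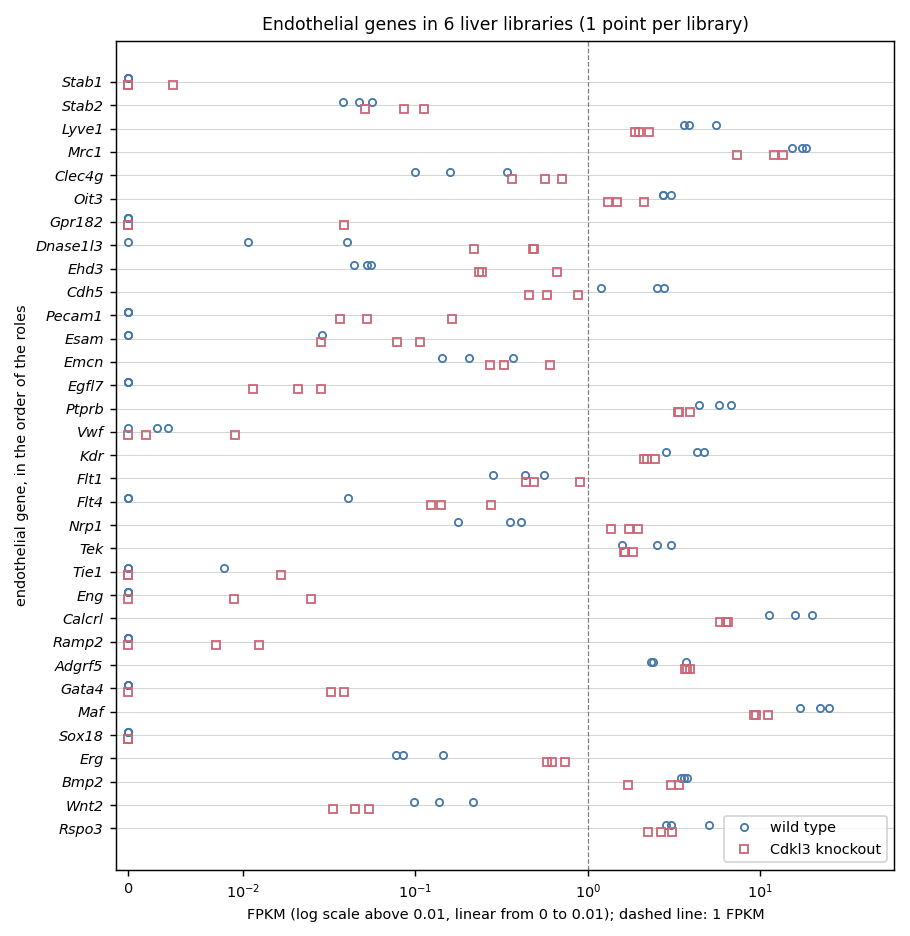
FPKM of 33 endothelial genes in each library (horizontal axis, log scale above 0.01), with circles for the 3 wild type and squares for the 3 Cdkl3 knockout libraries and a dashed line at 1 FPKM. Lyve1, Mrc1, Oit3, Cdh5, Ptprb, Kdr, Calcrl, Maf, Bmp2 and Wnt2 have their squares left of all circles. Nrp1, Erg, Ehd3, Dnase1l3, Clec4g, Pecam1, Flt4 and Egfl7 have theirs to the right.

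Of the scavenger and lectin receptors, Lyve1 and Mrc1 were tested and both fell. Lyve1, a hyaluronan receptor of sinusoidal and lymphatic endothelium (chromosome 7, 110850607 to 110863239, GRCm38, GENCODE M21), measured 5.53, 3.89 and 3.60 FPKM in wild type replicates 1 to 3 and 1.98, 2.25 and 1.87 FPKM in knockout replicates 1 to 3. The groups did not overlap, and the log2 difference was -0.80 (SE 0.18, limma adjusted p = 0.0066). Mrc1, the mannose receptor, which clears glycoproteins and collagen fragments, measured 17.4, 18.5 and 15.3 FPKM against 12.0, 13.5 and 7.35 FPKM. Its libraries were parted too, with the lowest value in knockout replicate 3, but the difference of -0.63 (SE 0.23, adjusted p = 0.046) was the weakest call and held in 1 of 6 fits without 1 library (adjusted p 0.037 to 0.15). Macrophages also carry Mrc1, and of their markers Adgre1 and Timd4 fell as well, from 5.63 ± 0.347 to 1.93 ± 0.874 and from 6.98 ± 0.674 to 2.02 ± 0.717 FPKM. Lyz2, which reached 1 FPKM only in the knockout-labelled libraries, rose, and Vsig4, Cd5l and Cd163 were not called. The 11 usable genes of that list summed to 22.8 to 43.0 FPKM in the wild type-labelled libraries and 15.9 to 62.6 FPKM in the knockout-labelled libraries, with C1qb at 0 throughout and Clec4f, Csf1r and Cd68 at 0 in each wild type library. The part of macrophages in the fall of Mrc1 was not tested. Stab2, the main hyaluronan scavenger receptor, had only 10 to 20 reads in wild type and 11 to 39 reads in knockout libraries, and its relative Stab1 had 1 read in all 6 libraries together. Clec4g, a C-type lectin of sinusoids, measured 0.338, 0.10 and 0.159 FPKM against 0.563, 0.709 and 0.365 FPKM. These groups were parted in the opposite direction to Lyve1, and the difference did not pass (adjusted p = 0.084 when all 20354 genes above 0 were fitted with no filter).

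Oit3, a secreted zona pellucida domain protein made by sinusoidal cells, fell from 2.84 ± 0.164 to 1.63 ± 0.432 FPKM (SD, n = 3). The libraries measured 2.75, 3.03 and 2.73 FPKM against 2.12, 1.47 and 1.30 FPKM, with no overlap (log2 difference -0.56, SE 0.16, adjusted p = 0.021). The call held in 2 of 6 fits without 1 library (adjusted p 0.012 to 0.083). The other 3 sinusoid-enriched genes were under the filter, and 1 of them, Dnase1l3, passed without it. Dnase1l3, a secreted nuclease, measured 0.0108, 0.0399 and 0 FPKM against 0.483, 0.491 and 0.218 FPKM. It had 2, 10 and 0 reads in wild type and 61, 100 and 30 reads in knockout libraries, and it rose in the fit without a filter (adjusted p = 0.019). Ehd3, a membrane-shaping ATPase, had 13, 14 and 7 reads against 39, 173 and 41 reads, with groups that did not overlap and an adjusted p of 0.080. Gpr182, a scavenging chemokine receptor, had 6 reads, all in knockout replicate 2. Of 20354 genes in that fit, 15.7% were higher and 5.18% lower in the knockout-labelled libraries.

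Among the genes of most endothelium, Cdh5 and Ptprb were tested and both fell. Cdh5, or VE-cadherin, the adhesion molecule of endothelial junctions (chromosome 8, 104101625 to 104144511), had 181, 514 and 237 reads in wild type and 47, 97 and 98 reads in knockout libraries. These correspond to 1.195, 2.52 and 2.76 FPKM against 0.456, 0.583 and 0.873 FPKM, and the ratio of the group means was 3.38 in favour of wild type (log2 difference -0.92, SE 0.22, adjusted p = 0.0097). With no filter Cdh5 was called in 1 of 6 fits that left out 1 library (adjusted p 0.011 to 0.12). Ptprb, the phosphatase that acts on VE-cadherin and on the angiopoietin receptor, measured 4.44, 5.80 and 6.75 FPKM against 3.90, 3.36 and 3.33 FPKM. Its groups did not overlap (log2 difference -0.54, SE 0.18, adjusted p = 0.034), and the call held in 2 of 6 fits without 1 library. Pecam1, the adhesion receptor CD31, was listed at 0 in each wild type library and had 8, 9 and 27 reads in the knockout-labelled libraries (adjusted p = 0.13 without a filter). Emcn, a sialomucin, overlapped between groups at 0.144 to 0.370 and 0.271 to 0.603 FPKM although its transcript has 40.7% GC. Esam, another junction protein, had at most 12 reads. Vwf, which carries clotting factor VIII, had at most 4 reads, and Egfl7, a secreted matrix protein, had 0 reads in the wild type-labelled libraries and 1, 4 and 2 in the knockout-labelled libraries.

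Growth factor receptors moved in different directions. Kdr, the main VEGF receptor of blood endothelium, measured 2.86, 4.72 and 4.28 FPKM in wild type and 2.47, 2.21 and 2.11 FPKM in knockout libraries. It fell without overlap (log2 difference -0.58, SE 0.19, adjusted p = 0.029), and the call held in 2 of 6 fits without 1 library. Nrp1, the VEGF and semaphorin co-receptor (chromosome 8, 128358604 to 128503363), rose from 0.355, 0.177 and 0.410 FPKM to 1.75, 1.95 and 1.36 FPKM. It had 125, 84 and 82 reads against 419, 754 and 355 reads, and the knockout mean was 5.37 times the wild type mean (log2 difference 1.03, SE 0.14, adjusted p = 0.00076). The libraries were far apart, and in the fit without a filter Nrp1 was called in each of 6 fits without 1 library. Tek, the angiopoietin receptor, measured 1.58, 3.05 and 2.52 FPKM against 1.64, 1.84 and 1.62 FPKM. The groups overlapped through wild type replicate 1 (log2 difference -0.30, 95% interval -0.74 to 0.14), and without that library Tek was called lower at -0.49 (adjusted p = 0.037). Flt1, the decoy VEGF receptor, overlapped between groups at 0.284 to 0.554 and 0.438 to 0.903 FPKM. Flt4, the receptor for VEGF-C, had 12, 0 and 0 reads against 25, 89 and 31 reads and was called higher without a filter (adjusted p = 0.041). That call was lost without wild type replicate 1, 2 or 3 or knockout replicate 3. Eng, a TGF-beta co-receptor, and Tie1 had at most 4 and 2 reads.

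Calcrl, the receptor for adrenomedullin and CGRP (chromosome 2, 84330626 to 84425411), showed the lowest log2 difference of the 13 tested genes. It measured 11.3, 16.0 and 19.9 FPKM in the wild type-labelled libraries and 6.36, 5.84 and 6.52 FPKM in the knockout-labelled libraries. Every knockout library was below every wild type library, and the knockout values lay close together (log2 difference -1.18, SE 0.21, adjusted p = 0.0025). Ramp2, the partner that makes Calcrl an adrenomedullin receptor, had at most 1 read per library, at 56.7% GC. Adgrf5, an adhesion receptor, was the tested gene of this group that was not lower, at 3.70, 2.34 and 2.40 FPKM against 3.67, 3.75 and 3.93 FPKM. The groups overlapped through wild type replicate 1 (log2 difference 0.35, 95% interval -0.07 to 0.76), and without it Adgrf5 was called higher at 0.51 (adjusted p = 0.029).

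Of the transcription factors, Maf had the highest mean FPKM of the 33 genes in the wild type-labelled libraries. Maf, which supports sinusoidal identity and is also used by macrophages (chromosome 8, 115682942 to 115707794), measured 16.9, 22.1 and 25.2 FPKM in wild type and 11.2, 9.24 and 9.40 FPKM in knockout libraries. It fell without overlap, with a ratio of group means of 2.15 in favour of wild type (log2 difference -1.02, SE 0.19, adjusted p = 0.0027). Erg, an ETS factor that holds endothelial fate, went the other way from low levels, with 18, 13 and 6 reads against 63, 85 and 54 reads. It measured 0.102 ± 0.0367 and 0.648 ± 0.0826 FPKM and was called higher without a filter (log2 difference 0.58, SE 0.08, adjusted p = 0.0061), also in each of 6 fits without 1 library. Gata4, a GATA factor of sinusoidal cells, had 0 reads in wild type and 0, 5 and 4 reads in knockout libraries, and Sox18 was listed at 0 in all 6.

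The angiocrine ligands were lower in mean in the knockout-labelled libraries, and none of the 3 with a usable row passed the test. Bmp2, the sinusoidal signal for hepcidin, measured 3.79, 3.59 and 3.46 FPKM against 3.05, 3.38 and 1.71 FPKM. The groups did not overlap, and knockout replicate 3 held the lowest value (log2 difference -0.34, 95% interval -0.82 to 0.13, adjusted p = 0.19). Rspo3, the R-spondin of central vein endothelium, overlapped between groups at 2.86, 5.07 and 3.04 FPKM against 2.67, 3.06 and 2.23 FPKM (log2 difference -0.33, 95% interval -0.81 to 0.16, adjusted p = 0.22). Wnt2 had 8, 15 and 10 reads against 3, 4 and 2 reads, with no overlap and an adjusted p of 0.0905 without a filter. Bmp2 was called lower after median centring, quantile normalization or removal of the trend on base composition, and Rspo3 after the last of these and quantile normalization.

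**Figure D3:**
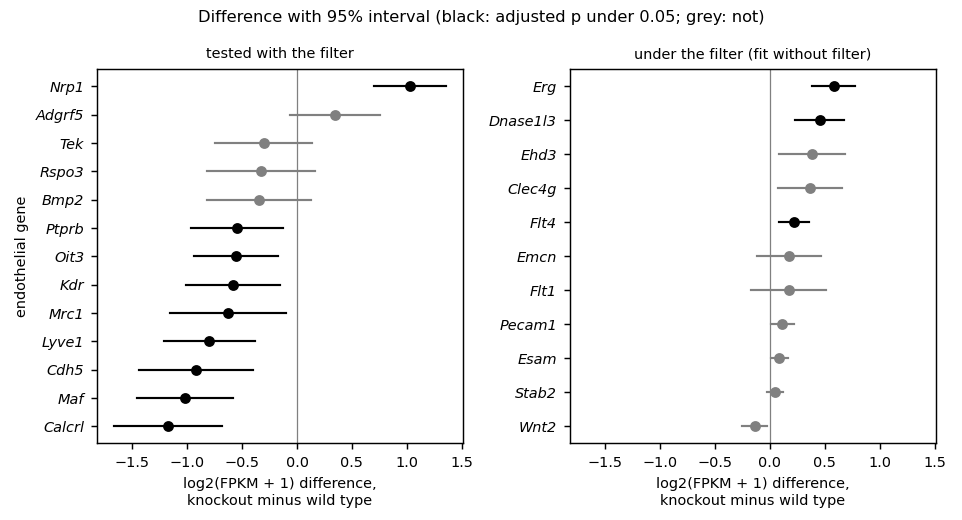
Log2(FPKM + 1) difference, knockout minus wild type (horizontal axis), with its 95% interval for 13 endothelial genes tested with the filter (left) and 11 under the filter in a fit without it (right), black where the adjusted p was under 0.05. The tested genes run from -1.18 for Calcrl to 1.03 for Nrp1, and 10 of the 11 genes on the right lie above 0.

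Of the 11 endothelial genes under the filter, 10 had a log2 difference above 0, as did 69.5% of the 20354 genes fitted with no filter. Stab2, Pecam1 and Esam turned below 0 after median centring or trend removal. Of the 11 genes under the filter, 3 were called higher (Dnase1l3, Flt4 and Erg), 0 lower and 8 were not called by limma. At an unadjusted p under 0.05 Wnt2 was the 1 lower gene. The knockout libraries lay above all wild type libraries in 6 of the 11 and below in 1, where 27.9% and 10.1% of the 20354 genes did so. Pecam1 and Esam reached 10 reads only in knockout-labelled libraries and Wnt2 only in wild type-labelled libraries. They thus entered the 11 through the group where they were higher, and the 20354 genes had no such cut. The background shares also moved with base composition. Under 45% GC 21.4% of tested genes were higher and 27.3% lower in the knockout-labelled libraries, and at 50 to 55% GC 55.7% were higher and 11.5% lower. GC content and log2 difference had a Spearman's rho of -0.04 among the 13 tested endothelial genes, against 0.36 over 5539 tested genes. Removal, library by library, of the trend on GC content and exon length left 11 of the 13 lower and 1 higher, where 27.1% and 25.1% of genes were. Oit3, Cdh5 and Bmp2 then stood at -1.42, -1.52 and -1.06, and Calcrl at -0.81. Median centring, which lowered the median of all genes by 0.28, gave 10 lower and 1 higher, where 33.4% and 25.5% of genes were. Under median centring, quantile normalization, rescaling outside mitochondrial transcripts and trend removal each of the 13 kept its direction. The 3 higher calls under the filter depended on the correction. After trend removal Erg remained called at 0.30, while Dnase1l3 and Flt4 did not (0.22 and 0.04).

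**Figure D4:**
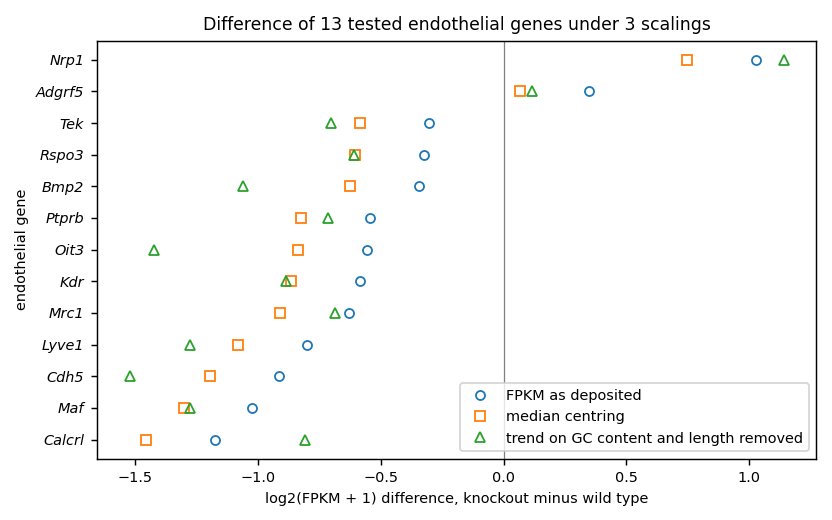
Log2(FPKM + 1) difference, knockout minus wild type (horizontal axis), of the 13 tested endothelial genes for FPKM as deposited (circles), after median centring (squares) and after removal of the trend on GC content and exon length (triangles). Nrp1 and Adgrf5 lie above 0 and the other 11 genes below 0 in each, and Oit3, Cdh5 and Bmp2 move furthest down after trend removal.

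The summed level of the 33 genes was 75.8, 92.0 and 93.7 FPKM in the wild type-labelled libraries and 56.6, 56.4 and 46.8 FPKM in the knockout-labelled libraries. Without Mrc1, Maf and Calcrl, the 3 genes above 10 FPKM in mean, the sums were 30.2, 35.4 and 33.3 against 27.1, 27.8 and 23.5 FPKM. Knockout replicate 1, the library with the high Kap value, had the highest of the 3 knockout sums over all 33 genes and the middle one without those 3 genes. The 4 genes outside the list whose profile over the 6 libraries was most like the mean of the 33 were Nrep, Serpinb6b, Itga8 and Gm34667, with Pearson's r of 0.99 in each case among 5498 genes. Such a likeness over 6 libraries in 2 groups is a description only.

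Ligands of the endothelial receptors and other endothelial genes were read from lists of whole pathways. Of 11 usable ligands and partners of the VEGF, angiopoietin and adrenomedullin receptors, 3 were tested. Vegfa, the main ligand of Kdr, rose from 2.84 ± 0.588 to 9.63 ± 1.85 FPKM (adjusted p = 0.00073), and Angpt1, the ligand of Tek, fell from 2.74 ± 0.968 to 1.17 ± 0.696 FPKM (adjusted p = 0.043). The groups overlapped for Angpt1, at 1.63 FPKM in wild type replicate 1 and 1.90 FPKM in knockout replicate 3. Its call was lost with a pseudocount of 0.1, with a block for replicate number and after trend removal (adjusted p = 0.12). It was also lost without wild type replicate 2 or 3 or knockout replicate 1 or 2. Sema3d, a semaphorin, fell from 2.25 ± 0.529 to 0.877 ± 0.0618 FPKM. It reached 1 FPKM only in the wild type-labelled libraries, so it could hardly have been tested without differing. In the BMP and TGF-beta relay 5 of 12 tested genes fell and 3 rose, against 6 and 1 after trend removal. Over all tested genes 20.5% fell and 33.7% rose, and after trend removal 27.1% were lower and 25.1% higher. The 5 became 2 without wild type replicate 3 or knockout replicate 2. The receptor genes Tgfbr1 and Tgfbr3 fell from 27.0 ± 2.14 to 14.0 ± 1.64 and from 3.38 ± 0.794 to 1.26 ± 0.359 FPKM. Hjv, the hepatocyte co-receptor that hears Bmp2, rose from 2.05 ± 1.31 to 9.90 ± 3.77 FPKM and Id2, a target of the relay, from 30.2 ± 8.34 to 70.1 ± 16.7 FPKM. In the Wnt and R-spondin list 6 of 17 tested genes rose and 4 fell, close to the 33.7% and 20.5% of all tested genes. The hepatocyte genes Cyp2e1 and Lect2 rose from 143 ± 77.2 to 1177 ± 177 and from 1.15 ± 0.312 to 7.10 ± 2.97 FPKM, as did Ctnnb1, the gene of beta-catenin, from 0.160 ± 0.0726 to 3.64 ± 0.467 FPKM. Ctnnb1 reached 1 FPKM only in the knockout-labelled libraries, so it too could hardly have been tested without differing. Fzd4, a Wnt receptor, fell from 11.8 ± 2.41 to 3.56 ± 1.496 FPKM. The balance of this list turned with the scaling, to 3 higher and 6 lower after trend removal and to 3 and 5 after rescaling outside mitochondrial transcripts. The 4 lower genes became 2 without wild type replicate 3 or knockout replicate 2. None of the 4 tested Notch genes passed in limma (0 at an unadjusted p under 0.05), with Hes1 at 5.77 ± 0.862 and 7.59 ± 4.32 FPKM and Notch2 at 4.28 ± 0.433 and 3.08 ± 0.846 FPKM. Of these 4, 3 were called lower after quantile normalization, 2 after trend removal and 1 after median centring or rescaling outside mitochondrial transcripts.

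Of 71 usable other endothelial genes, 32 were tested, 9 fell and 4 rose, with a median log2 difference of -0.30. Over all tested genes 20.5% fell and 33.7% rose, with a median of 0.12. The endothelin receptor Ednrb fell from 10.9 ± 0.431 to 3.83 ± 0.758 FPKM (adjusted p = 0.00058), the sinusoidal lectin Clec1b from 5.70 ± 0.453 to 2.14 ± 0.681 FPKM and the transcription factor Zeb2 from 3.52 ± 0.518 to 1.22 ± 0.0818 FPKM. Zeb1, its relative, rose from 0.439 ± 0.202 to 1.36 ± 0.0884 FPKM (adjusted p = 0.0034). Zeb1 reached 1 FPKM only in the knockout-labelled libraries, so it could hardly have been tested without differing. Ednrb and Zeb2 are also used by stellate cells and macrophages. After trend removal 12 of this list were lower and 1 was higher, where 27.1% and 25.1% of all tested genes were. The 4 that rose became 2 without wild type replicate 3, knockout replicate 2 or knockout replicate 3. Plvap, Nos3, Gja5 and Ltbp4 were listed at 0 in all 6 libraries.

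Of 8 usable markers of the neighbouring stellate cells and fibroblasts, 4 were tested and all 4 fell, where 20.5% of all tested genes fell. Of these 4, Pdgfra reached 1 FPKM only in the wild type-labelled libraries, so it could hardly have been tested without differing. Reln fell from 7.32 ± 1.69 to 1.63 ± 0.214 FPKM, the proteoglycan Dcn from 80.8 ± 30.5 to 22.0 ± 6.42 FPKM, the growth factor receptor Pdgfra from 1.80 ± 0.566 to 0.473 ± 0.221 FPKM and Lrat, which stores retinol, from 8.08 ± 1.22 to 4.13 ± 1.59 FPKM. The 8 usable genes of that list summed to 77.8 to 132 FPKM in the wild type-labelled libraries and 22.2 to 33.5 FPKM in the knockout-labelled libraries, with Pdgfrb at or under 0.018 FPKM in each library. Under the filter and not tested, Col1a1 (0.0260 ± 0.0114 and 0.0520 ± 0.0112 FPKM) and Col1a2 (0.219 ± 0.0504 and 0.347 ± 0.0619 FPKM), both collagen genes, had each knockout library above each wild type library. The transcription factor Hand2 measured 0.0630 ± 0.0591 and 0.189 ± 0.0611 FPKM. Of 7 tested hepatocyte markers 4 rose and none fell, where 33.7% and 20.5% of all tested genes did. The 9 usable genes of the hepatocyte list summed to 2137 to 2479 against 3898 to 5068 FPKM. The part of cell makeup in the fall of endothelial genes was not tested. The usable kidney glomerulus genes Nphs1, Wt1 and Synpo, at 53.7 to 58.2% GC, summed to 0.0641 to 0.157 against 0.105 to 0.279 FPKM. Rows this rich in GC were short of reads, so these sums cannot show how much glomerular tissue was present. The usable kidney tubule genes, with Kap, summed to 0.432 to 1.47 against 4.38 to 5283 FPKM, highest in knockout replicate 1. The part of kidney tissue in the endothelial values was not tested.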

How the data were processed

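Total RNA of whole liver was sequenced in 6 libraries, and the authors deposited 1 FPKM value per row, per the file headers. HISAT2 and GRCm39 are named in the submitters' processing notes, while no source used here names the counting tool or annotation. In 1 of 6 tables the header code differs from the sample's title, and the label was used. With exon lengths of GENCODE M21 (GRCm38) by symbol, 98.95% of 43462 low values up to 40 reads were whole reads to within 0.15 read, by identifier 30.57%, and in the 1787 rows of the chromosome 1 block 36.05%. Symbols were used, and that block, 119 rows without a symbol and 227 with a repeated one were left out. Reads given for a gene are those recovered this way.

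The fit of log2(FPKM + 1) on genotype alone used R 4.3.3 and limma 3.58.1 (trend, robust) over 5651 genes at 1 FPKM or more in at least 3 libraries, with Benjamini-Hochberg adjustment and a threshold of 0.05. Genes under that filter with at least 10 reads in some library were read from a fit of all 20354 genes above 0. The log2 scale with a pseudocount of 1 understates changes of low genes. The test was checked on simulated data. The endothelial genes and lists were chosen with earlier results of these data known. All endothelial genes are named. From each other list up to 4 called genes with the smallest adjusted p, or 2 with the highest mean where none was called, are named, beside genes named as listed at 0, as overlapping cell markers or as checks. Tables came from pandas 2.3.3 and scipy 1.17.1 (Python 3.11.15, numpy 2.4.6), figures from matplotlib 3.10.9.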

Additional observations from a re-analysis of the deposited data

How the results depend on the processing

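Of the values of the 13 tested endothelial genes under other settings, 168 kept direction and call, 26 lost the call, 10 gained it and 0 reversed. With 8 lower and 1 higher as reported, an adjusted p under 0.01 left 4 lower. A filter at 10 FPKM left 3 lower and 0 higher of 3 tested. At a mean of at least 1 FPKM 12 were tested, with 8 lower and 0 higher, as Nrp1 was under that mean and not tested. The fit without a filter held 32 endothelial genes, with 5 lower and 4 higher, which were Nrp1, Dnase1l3, Flt4 and Erg. Leaving out 1 library gave 3 to 7 lower and 0 to 2 higher, and Nrp1 or Cdh5 was not tested where its group lost a library under the filter, which asks for 3. Over all genes, 1907 higher and 1158 lower became 3193 higher without a filter, and 468 and 559 at 10 FPKM. The lower genes numbered 664 at 0.01, 1889 after median centring, 1760 after quantile normalization and 1782 after rescaling outside mitochondrial transcripts. Leaving out 1 library gave 964 to 1951 higher and 727 to 1040 lower. Of the 11 genes under the filter, the 3 called higher became 1 at 0.01, after quantile normalization or after trend removal, and 1 to 4 without 1 library. The 0 lower became 1 after median centring or quantile normalization and 3 after trend removal. Among them Stab2 turned to -0.073, -0.050 and -0.15 after median centring, quantile normalization and trend removal, Pecam1 to -0.0079 and -0.11 and Esam to -0.038 and -0.17 after median centring and trend removal, and Emcn and Flt1 to -0.065 and -0.14 after quantile normalization. The cause was not tested. The difference in Cdkl3 ran from -0.0130 to 0.0467 FPKM without 1 library, and turned to -0.00285 without wild type replicate 2 and to -0.0130 without knockout replicate 3. Labels share replicate numbers but give no shared source. Deviations from group means correlated at -0.05, -0.10 and 0.18 in the same-numbered pairs and at -0.35 to 0.35 in the other pairs. With 3 libraries per group these values cannot decide whether the numbers pair the samples. With a replicate block 6 endothelial genes were lower (Kdr and Ptprb not called) and 1 higher. Of the pathway list counts 44 changed by over 1.5 times and 126 did not, and the cause was not tested. Of the 11 genes under the filter, Esam and Wnt2 had at most 12 and 15 reads in any library, and Flt1 had 120 to 364.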
